A study of Homo sapiens with 6 samples.

Results

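The small nuclear ribonucleoproteins, or snRNPs, are the RNA-protein particles that build the spliceosome, and 46 genes for their protein subunits and for the factors that help recognise the 3′ splice site were followed here in MDA-MB-435 cells after knockdown of ZCCHC24. They were found by gene symbol in the deposited FPKM table, in which 46 of 47 listed symbols occurred, each on a single row, among 57150 gene rows. LSM8 was the symbol not found. Its Ensembl identifier (ENSG00000128534) is in the table under the symbol NAA38, and that row is described below but not counted with the 46. All 46 had a mean of at least 1 FPKM and were tested. FPKM is a fragment number divided by transcript length and by the size of the library, so it can be compared between genes as a level per length. Levels are given below as mean ± SD over the 3 libraries of a group, and log2 fold changes with the standard error of the fit.

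The study holds 6 strand-specific mRNA libraries of the established human cancer line MDA-MB-435, 3 labelled as ZCCHC24 control and 3 as ZCCHC24 knockdown, and its title places ZCCHC24 in the regulation of the splicing machinery. No other allele, treatment or time point is given for either group, no source used here says how ZCCHC24 was depleted, and nothing tells whether libraries of a group came from separate cultures. The p-values below therefore measure the spread between these libraries, which may be technical. The labels call the line breast, although as background it has since been assigned to melanoma. The 7 melanocyte markers PMEL, MLANA, TYR, TYRP1, DCT, MITF and SOX10 had control means from 89.5 to 846 FPKM. Of 7 breast epithelial markers, KRT8 and KRT18 had 27.5 and 70.4 FPKM, KRT19, EPCAM and CDH1 had 4.36, 1.72 and 2.05 FPKM, and ESR1 and GATA3 had 0.232 and 0.528 FPKM. The summed level of the melanocyte markers was 1824 to 1932 FPKM in the controls and 1297 to 1361 FPKM in the knockdown libraries, and that of the breast markers 98.11 to 115.2 and 140.2 to 149 FPKM; their part in the results below was not tested. Of the melanocyte markers 6 of 7 fell and TYR did not pass, and of the breast markers KRT8 and KRT18 rose, 3 did not pass and 2 were too weak to be tested. Among all tested genes, 35.4% were called lower and 37% higher by the same test. ZCCHC24 was at 12.7, 12.3 and 13.2 FPKM in controls 1 to 3 and 1.54, 1.69 and 1.81 FPKM in knockdown libraries 1 to 3, a log2 fold change of -2.36 ± 0.08 (limma adjusted p 1.5e-07). An exact two-sided permutation test of 3 against 3 libraries cannot give a p below 0.1, the value it gave for ZCCHC24.

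An snRNP consists of a small nuclear RNA and its proteins. The Sm proteins form a ring around the U1, U2, U4 and U5 RNAs, and the related LSM proteins LSM2 to LSM8 form a ring at the end of the U6 RNA. U1 binds the 5′ splice site, U2 binds the branch point with the help of SF1 and the U2AF proteins, and the U4/U6 and U5 particles join as the tri-snRNP before the catalytic centre forms. The proteins of one particle are made from separate mRNAs and assembled in the cytoplasm and nucleus, so the levels given here are those of the mRNAs and not of the particles. In bulk libraries, less RNA per cell and fewer cells expressing a gene cannot be told apart.

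Most snRNP subunit genes moved after knockdown, more of them down than up. At a limma adjusted p below 0.05, 26 of the 46 fell (56.5%), 11 rose (23.9%) and 9 did not pass. Among all 13343 tested genes, 72.4% were called, 37% higher and 35.4% lower, so the share of members called, 80.4%, has to be read against a high background. The median log2 fold change, knockdown minus control on log2(FPKM + 1), was -0.23 over the members and 0.01 over all tested genes. Falls by at least 1 on that scale were seen for 3 members (6.52% of them, against 7.14% of tested genes), TXNL4A, PPIH and LSM4, and no member rose by as much, against 4.96% of tested genes. The 3 control and 3 knockdown values did not overlap for 36 members (78.3%), against 75.9% of tested genes. Summed over the 46 genes, the level was 5263, 5057 and 5117 FPKM in controls 1 to 3 and 4609, 4608 and 4629 FPKM in knockdown libraries 1 to 3, and the ranges of the groups did not overlap. The knockdown mean was 89.7% of the control mean. Summed over all 57150 genes it was 95.2%, from 717545 to 733644 FPKM in the controls and 681922 to 696942 FPKM after knockdown, also without overlap, and this is the background for the sums by particle below. The listed locus of 15 of the 46 also held another gene at 1 FPKM or more, and without these 15 there were 7 members that rose and 18 that fell.

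**Figure D1:**
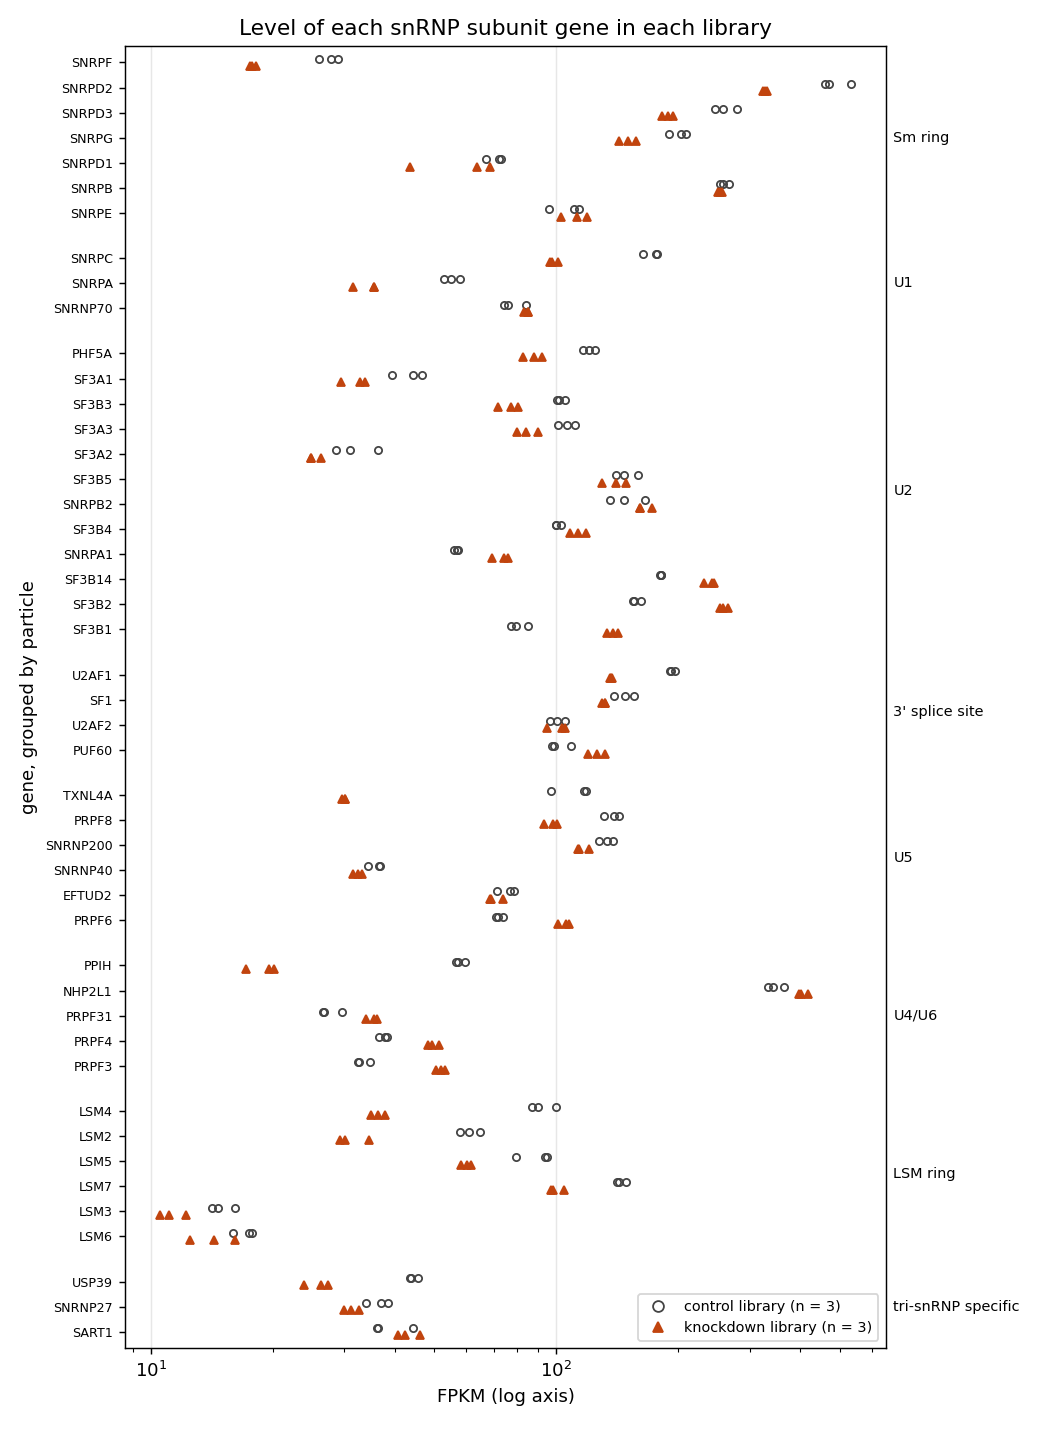
FPKM (log axis) of the 46 snRNP subunit genes in each library, grouped by particle; open circles are the 3 control libraries and triangles the 3 knockdown libraries. TXNL4A, PPIH, LSM4 and LSM2 show the widest gaps between the groups, with the knockdown libraries to the left, while SF3B1, SF3B2 and 4 of the 5 U4/U6 genes have them to the right.

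By particle, the counts were as follows, to be read against 35.4% of all tested genes lower and 37% higher. All 6 LSM ring genes found by symbol fell, while LSM8, listed as NAA38 and not counted, did not pass. Also lower were 4 of 7 Sm ring genes, 2 of 3 U1 genes and 2 of 3 tri-snRNP specific genes. There was no rise in these groups. In U5, 4 of 6 fell and 1 rose. U2 was divided, with 5 higher, 5 lower and 2 that did not pass. In U4/U6, 4 of 5 rose and 1 fell. Among the 4 factors of the 3′ splice site, 2 fell, 1 rose and 1 did not pass. These are counts of a few genes each, and no test of a difference between particles was made.

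**Figure D2:**
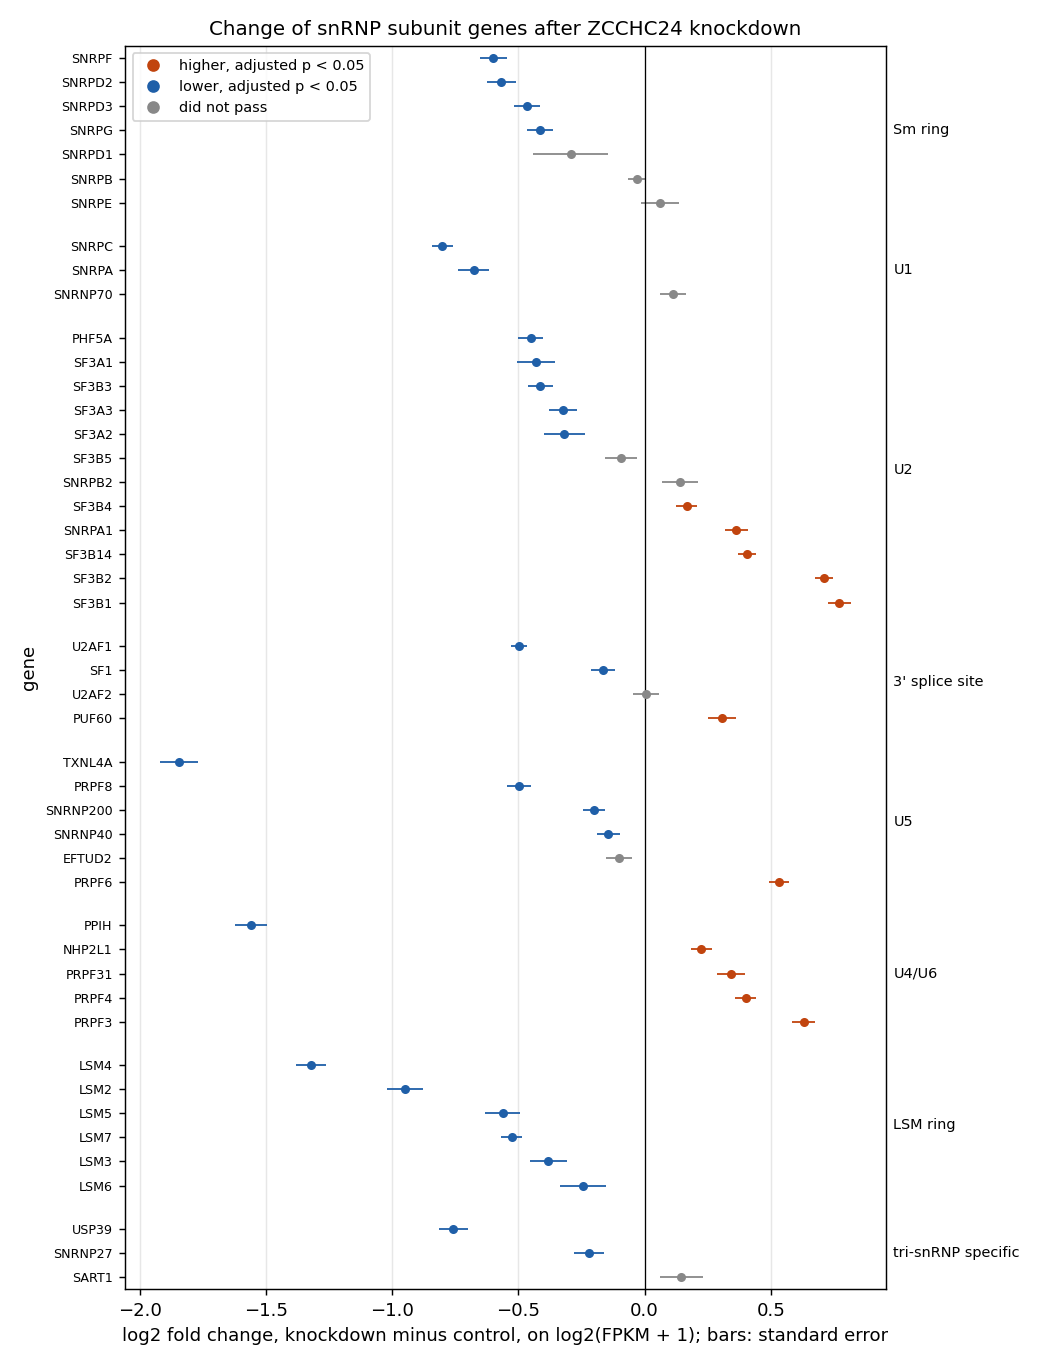
Log2 fold change, knockdown minus control on log2(FPKM + 1), with its standard error for the 46 genes by particle, coloured by the limma call at an adjusted p of 0.05. The 6 LSM ring genes found by symbol lie below 0 (LSM8 is not drawn), U4/U6 has 4 genes above 0 and PPIH at -1.56, and U2 spans from -0.45 to 0.77.

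The 250 bases before the annotated start are shown for the 3 members that fell most and the 2 that rose most, so that their promoters can be compared. Only the first listed promoter entry of each gene was used here and in the motif shares below, so any other start was not searched. They are RefSeq sequences on GRCh38.p14, a later build than that of the expression table, written 5′ to 3′ on the strand of the gene. Their positions are chr18:79988564-79988813 (minus strand) for TXNL4A, chr1:42658173-42658422 (plus strand) for PPIH, chr19:18323077-18323326 (minus strand) for LSM4, chr2:197435029-197435278 (minus strand) for SF3B1 and chr11:66052114-66052363 (plus strand) for SF3B2. Capitals mark matches on either strand to the ETS core CCGGAAG, the E2F motif TTTNGCGC, the NRF1 motif (GCGC and TGCGC with any single base between them), the YY1 motif AAGATGG or the CCAAT box.
TXNL4A: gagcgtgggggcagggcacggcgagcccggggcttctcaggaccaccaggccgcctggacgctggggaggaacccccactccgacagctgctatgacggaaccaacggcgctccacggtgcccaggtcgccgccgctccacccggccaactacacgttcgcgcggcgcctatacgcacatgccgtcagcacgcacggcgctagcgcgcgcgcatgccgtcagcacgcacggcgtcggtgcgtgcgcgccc
PPIH: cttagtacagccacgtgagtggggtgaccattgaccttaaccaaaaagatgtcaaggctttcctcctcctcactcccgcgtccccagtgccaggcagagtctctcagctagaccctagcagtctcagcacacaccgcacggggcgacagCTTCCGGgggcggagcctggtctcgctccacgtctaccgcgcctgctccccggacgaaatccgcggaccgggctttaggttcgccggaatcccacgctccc
LSM4: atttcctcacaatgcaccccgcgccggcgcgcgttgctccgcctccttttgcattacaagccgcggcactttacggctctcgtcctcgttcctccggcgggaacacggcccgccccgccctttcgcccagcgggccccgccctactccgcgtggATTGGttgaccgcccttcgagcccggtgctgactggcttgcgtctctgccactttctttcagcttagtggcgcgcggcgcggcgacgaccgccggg
SF3B1: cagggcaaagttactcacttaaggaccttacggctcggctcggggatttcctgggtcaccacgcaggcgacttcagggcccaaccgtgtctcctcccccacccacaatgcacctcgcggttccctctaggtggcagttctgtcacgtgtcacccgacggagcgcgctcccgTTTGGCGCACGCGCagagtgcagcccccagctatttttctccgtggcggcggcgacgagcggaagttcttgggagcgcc
SF3B2: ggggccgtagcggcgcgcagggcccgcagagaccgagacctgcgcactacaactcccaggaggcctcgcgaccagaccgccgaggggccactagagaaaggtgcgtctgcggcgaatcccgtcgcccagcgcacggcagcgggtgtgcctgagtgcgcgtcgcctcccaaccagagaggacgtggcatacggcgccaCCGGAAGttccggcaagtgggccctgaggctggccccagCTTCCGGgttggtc
The window of TXNL4A held none of these 5 motifs. PPIH held an ETS core beginning 101 bases before the start, LSM4 a CCAAT box 96 bases before it, and SF3B2 ETS cores 53 and 14 bases before it. In SF3B1 an E2F match 79 bases before the start overlapped an NRF1 match 75 bases before it, sharing the letters GCGC. All 5 windows were rich in G and C, from 62.8% in PPIH to 73.2% in TXNL4A. Over the 39 members with a promoter entry, 19 windows (48.7%) held the ETS core, against 8.8% of 27305 promoters in the table and 17% of the 8732 belonging to tested genes. By call, these were 9 of 23 members that fell and 5 of 8 that rose. Members that did not pass held the ETS core as often as those that rose. The NRF1 motif was in 7 windows (17.9%, against 5.5% and 11.2%), the CCAAT box in 12 (30.8%, against 33% and 36.2%) and the GC box GGGCGG, which can overlap an ETS core, in 24 (61.5%, against 42.3% and 67.8%). E2F matches were in 1 window (2.6%, against 1.5% and 2.6%), YY1 matches in 2 (5.1%, against 3.8% and 3.6%) and the TATA box TATAAA in 1 (2.6%, against 11.1% and 4.9%). By call, the GC box was in 17 of 23 members that fell and 4 of 8 that rose. No difference by call was tested for any motif. A match describes the letters only and does not show binding.

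The heptameric LSM ring, which binds the end of U6 RNA and helps U4/U6 pairing, was lower in all 6 subunits found by symbol. LSM4 (ENSG00000130520; hg19 chromosome 19, 18417039 to 18434084) was at 99.8, 86.9 and 90.3 FPKM in controls 1 to 3 and 36.3, 34.9 and 37.7 FPKM in knockdown libraries 1 to 3. The groups lay far apart, a 2.54-fold fall with a log2 fold change of -1.32 ± 0.06 and a limma adjusted p of 5.2e-07; only 3.58% of tested genes had a lower log2 fold change. LSM2 was at 64.8, 57.8 and 60.9 FPKM in controls 1 to 3 and 29.2, 30.03 and 34.6 FPKM in knockdown libraries 1 to 3, again without overlap (-0.95 ± 0.07, adjusted p 7.5e-06). LSM7 went from 144 ± 4.09 to 99.8 ± 3.82 FPKM (-0.53 ± 0.04, adjusted p 1.0e-05) and LSM5 from 89.4 ± 8.51 to 60.02 ± 1.75 FPKM (-0.56 ± 0.07, adjusted p 0.00012). LSM3, one of the 2 least abundant ring mRNAs, went from 14.97 ± 1.005 to 11.3 ± 0.844 FPKM (-0.38 ± 0.07, adjusted p 0.0017). LSM6 was the one whose groups overlapped, since knockdown 2 at 16.1 FPKM lay above control 2 at 15.9 FPKM. Its fall, from 17.04 ± 0.986 to 14.3 ± 1.81 FPKM, passed narrowly (-0.24 ± 0.09, adjusted p 0.038), and was lost without control 1 (adjusted p 0.11), control 3 (0.098), knockdown 1 (0.12) or knockdown 3 (0.078). It was also lost without a filter on low values (0.099), under median scaling (0.062), with a replicate block (0.069) and with quality weights (0.052). LSM8, the subunit that sets the nuclear ring apart from the cytoplasmic one, did not pass the test. Listed as NAA38, it was at 80.6, 86.6 and 79.8 FPKM in controls 1 to 3 and 85.3, 81.5 and 80.3 FPKM in knockdown libraries 1 to 3, with overlapping groups and a log2 fold change of 0.00 ± 0.05 (limma adjusted p 0.98). LSM1, which takes the place of LSM8 in the cytoplasmic ring of mRNA decay, went from 47.2 ± 2.39 to 45.7 ± 0.537 FPKM and did not pass either (limma adjusted p 0.42). Summed over the 6 genes found by symbol, the level was 419, 410.1 and 429 FPKM in controls 1 to 3. In knockdown libraries 1 to 3 it was 252, 250.4 and 257 FPKM, and the knockdown mean was 60.4% of the control mean. This sum leaves out LSM8, with means of 82.3 FPKM in the controls and 82.4 FPKM after knockdown, so it overstates the fall of the whole ring.

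The 7 Sm genes differ widely in FPKM although each protein is present once in the ring. Control means ran from 27.6 FPKM for SNRPF to 488 FPKM for SNRPD2. All but SNRPB have coding lengths below 600 bases, and FPKM of short genes depend on the fragment length assumed. SNRPD2 also shares its listed locus with QPCTL. These values may therefore not give the order of mRNA abundance. SNRPF was at 27.7, 25.96 and 28.95 FPKM in controls 1 to 3 and 18.1, 17.8 and 17.6 FPKM in knockdown libraries 1 to 3, and the groups were separate (-0.60 ± 0.05, adjusted p 1.9e-05). SNRPD2 fell from 488 ± 40.4 to 328 ± 3.501 FPKM (-0.57 ± 0.06, adjusted p 3.6e-05), SNRPD3 from 261 ± 16.6 to 188 ± 5.83 FPKM (-0.47 ± 0.05, adjusted p 6.4e-05) and SNRPG from 200.4 ± 10.1 to 150.2 ± 7.13 FPKM (-0.41 ± 0.05, adjusted p 0.00013). SNRPB, which encodes the B and B′ proteins, was at 259 ± 6.41 in the controls and 253 ± 3.18 FPKM after knockdown, with a log2 fold change of -0.03 ± 0.03 and an adjusted p of 0.41. SNRPE was also not called, at 95.9, 111 and 113 FPKM in controls 1 to 3 and 103, 112 and 119 FPKM in knockdown libraries 1 to 3 (0.06 ± 0.08, adjusted p 0.48). Its value can share reads with the pseudogene SNRPEP4, which was listed at 39.7 ± 7.57 FPKM in the controls and 43.7 ± 1.06 FPKM after knockdown. SNRPD1 was at 73.2, 66.9 and 72.1 FPKM in controls 1 to 3 and 43.5, 68.7 and 63.6 FPKM in knockdown libraries 1 to 3. Knockdown 1 lay far below the controls, knockdown 3 just below them and knockdown 2 among them. The log2 fold change of -0.29 ± 0.15 did not pass (adjusted p 0.11) and passed without knockdown 2 (-0.42, adjusted p 0.032). The summed Sm level went from 1413 ± 45.6 to 1108 ± 16.96 FPKM, 78.4% of the control mean.

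Of the 3 proteins particular to U1, 2 had lower mRNA. SNRPC, the U1-specific protein that helps U1 pair with the 5′ splice site, was at 177, 164 and 176 FPKM in controls 1 to 3 and 96.6, 97.6 and 101 FPKM in knockdown libraries 1 to 3. The groups were separate, with a 1.75-fold fall (-0.80 ± 0.04, adjusted p 1.2e-06). SNRPA, which binds the second stem-loop of U1 RNA, fell from 55.2 ± 2.56 to 34.2 ± 2.32 FPKM (-0.68 ± 0.06, adjusted p 2.0e-05). SNRNP70, which contacts the first stem-loop of U1 RNA, was at 83.97, 74.2 and 75.95 FPKM in controls 1 to 3 and 85.01, 84.9 and 83.02 FPKM in knockdown libraries 1 to 3, so control 1 lay among the knockdown libraries. Its log2 fold change was 0.11 ± 0.05 (adjusted p 0.08). Without control 1 it was 0.17 with an adjusted p of 0.0055, and it also passed under median scaling (0.14, adjusted p 0.049) and with quality weights (0.13, adjusted p 0.031). The level of SNRPC relative to SNRNP70 went from 2.21 ± 0.103 in the controls to 1.17 ± 0.0444 in the knockdown libraries.

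Genes of the U2 particle moved in both directions, also within its SF3b complex. SF3B1, the scaffold of the SF3b complex that holds the branch point, was at 77.2, 84.9 and 79.3 FPKM in controls 1 to 3 and 138, 142 and 134 FPKM in knockdown libraries 1 to 3. All 3 knockdown libraries lay above all controls, a 1.72-fold rise (0.77 ± 0.05, adjusted p 2.3e-06). SF3B2, which binds RNA around the branch point together with SF3B4, was at 162, 156 and 155 FPKM in controls 1 to 3 and 264, 254 and 258 FPKM in knockdown libraries 1 to 3 (0.71 ± 0.04, adjusted p 8.7e-07), likewise without overlap. SF3B14, now named SF3B6 and known as p14 for its place at the branch point adenosine, was at 179.9, 181 and 181 FPKM in controls 1 to 3 and 231, 243 and 245 FPKM in knockdown libraries 1 to 3 (0.40 ± 0.04, adjusted p 1.8e-05). SF3B4 itself rose from 101 ± 1.67 to 113 ± 4.93 FPKM (0.17 ± 0.04, adjusted p 0.0072). SF3B3 and PHF5A, which both contact SF3B1 in the same complex, fell. PHF5A was at 124, 116 and 120.1 FPKM in controls 1 to 3 and 82.9, 87.9 and 92.2 FPKM in knockdown libraries 1 to 3 (-0.45 ± 0.05, adjusted p 6.4e-05) and SF3B3 went from 102 ± 2.48 to 76.6 ± 4.37 FPKM (-0.41 ± 0.05, adjusted p 0.0001). SF3B5, the smallest subunit of the complex, was at 159, 141 and 146 FPKM in controls 1 to 3 and 148, 129 and 140.2 FPKM in knockdown libraries 1 to 3; these overlapped and did not pass (-0.09 ± 0.06, adjusted p 0.21), although the fit with a replicate block called it lower (adjusted p 0.035). Relative to SF3B3, the level of SF3B1 went from 0.787 ± 0.0518 in the controls to 1.81 ± 0.135 in the knockdown libraries.

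All 3 genes of SF3a, the complex that joins SF3b to the U2 core, fell. SF3A1 went from 43.4 ± 3.73 to 31.9 ± 2.23 FPKM (-0.43 ± 0.08, adjusted p 0.00099), SF3A2 from 31.9 ± 3.92 to 25.3 ± 0.869 FPKM (-0.32 ± 0.08, adjusted p 0.0082) and SF3A3 from 106 ± 5.19 to 84.7 ± 5.12 FPKM (-0.32 ± 0.06, adjusted p 0.00092). Neither of the proteins on the stem-loop of U2 RNA was called lower. SNRPA1 rose from 56.7 ± 0.796 to 73.3 ± 3.49 FPKM (0.36 ± 0.04, adjusted p 0.00013), and SNRPB2, its partner, was at 136, 147 and 166 FPKM in controls 1 to 3 and 160.5, 172 and 161 FPKM in knockdown libraries 1 to 3 and did not pass (0.14 ± 0.07, adjusted p 0.11). Without control 3 SNRPB2 was called higher (0.22, adjusted p 0.0092). Summed over 12 genes, the U2 level went from 1279 ± 12.5 to 1433 ± 16.1 FPKM, 112% of the control mean.

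Of the factors that mark the 3′ splice site, U2AF1, which reads the terminal AG, was at 190.4, 196 and 192 FPKM in controls 1 to 3 and 136, 135 and 138 FPKM in knockdown libraries 1 to 3. The groups were tight and separate (-0.50 ± 0.03, adjusted p 3.3e-06). Its partner U2AF2, which binds the polypyrimidine tract, was at 105, 101 and 96.5 FPKM in controls 1 to 3 and 105, 94.7 and 103 FPKM in knockdown libraries 1 to 3 with overlapping groups, and it did not pass (0.00 ± 0.05, adjusted p 0.95). SF1, the branch point binding protein that U2 displaces, fell slightly, from 147 ± 8.37 to 131 ± 1.42 FPKM (-0.17 ± 0.05, adjusted p 0.012). PUF60, a relative of U2AF2, was at 109, 97.4 and 98.6 FPKM in controls 1 to 3 and 132, 119 and 126 FPKM in knockdown libraries 1 to 3 and rose (0.31 ± 0.06, adjusted p 0.0012). U2AF1L4, a paralogue of U2AF1 that is not among the 46, fell from 4.76 ± 0.537 to 2.75 ± 0.219 FPKM (-0.61 ± 0.10, adjusted p 0.00066).

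The largest fall of all members was in U5. TXNL4A (ENSG00000141759; hg19 chromosome 18, 77732866 to 77793949), the human counterpart of yeast Dib1, which sits at the 5′ splice site in the tri-snRNP, was at 118, 96.8 and 117 FPKM in controls 1 to 3 and 29.6, 30.1 and 30.02 FPKM in knockdown libraries 1 to 3. The knockdown libraries lay within 1 FPKM of each other and far below the lowest control, a 3.696-fold fall (-1.85 ± 0.07, adjusted p 3.5e-07). Only 0.802% of tested genes had a lower log2 fold change. PRPF8, the protein at the heart of the catalytic centre, fell from 138 ± 6.14 to 97.2 ± 3.62 FPKM (-0.50 ± 0.05, adjusted p 2.7e-05), and SNRNP200, the helicase that unwinds U4/U6, from 133 ± 4.96 to 116 ± 3.98 FPKM (-0.20 ± 0.04, adjusted p 0.0033). SNRNP40, a WD-repeat protein, went from 35.9 ± 1.33 to 32.4 ± 0.792 FPKM (-0.14 ± 0.05, adjusted p 0.022). This small difference was lost without control 1 (adjusted p 0.055), control 3 (0.065), knockdown 1 (0.052) or knockdown 2 (0.078), and under median scaling (0.077). EFTUD2, the GTPase of U5, was at 71.4, 78.8 and 76.8 FPKM in controls 1 to 3 and 68.9, 73.9 and 68.5 FPKM in knockdown libraries 1 to 3 and did not pass (-0.10 ± 0.05, adjusted p 0.1); it was called lower without control 1 (-0.14, adjusted p 0.029). PRPF6, which bridges U5 and U4/U6, rose. It was at 73.9, 71.8 and 70.8 FPKM in controls 1 to 3 and 107, 101 and 106 FPKM in knockdown libraries 1 to 3, without overlap (0.53 ± 0.04, adjusted p 7.0e-06). The PRPF8 level was 1.91 ± 0.0741 times that of PRPF6 in the controls and 0.929 ± 0.0448 times in the knockdown libraries, so the order of the pair changed.

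In the U4/U6 particle 1 gene fell steeply and 4 rose. Of the 4, PRPF4, PRPF31 and NHP2L1 lie on loci shared with another gene at 1 FPKM or more, and PRPF3 does not. PPIH (ENSG00000171960; hg19 chromosome 1, 43124095 to 43142429), a cyclophilin that binds PRPF4, was at 56.5, 59.6 and 57.1 FPKM in controls 1 to 3 and 17.2, 20.1 and 19.6 FPKM in knockdown libraries 1 to 3. The groups did not approach each other, a 3.05-fold fall (-1.56 ± 0.06, adjusted p 3.6e-07), and 1.9% of tested genes had a lower log2 fold change. PRPF3, which binds the paired U4 and U6 RNAs, was at 32.5, 34.6 and 32.4 FPKM in controls 1 to 3 and 50.6, 51.96 and 53.1 FPKM in knockdown libraries 1 to 3, a 1.56-fold rise (0.63 ± 0.04, adjusted p 5.6e-06). PRPF4, its partner on U4/U6, was at 36.4, 38.1 and 37.7 FPKM in controls 1 to 3 and 48.4, 51.3 and 49.4 FPKM in knockdown libraries 1 to 3 (0.40 ± 0.04, adjusted p 5.7e-05), also without overlap. PRPF31, which binds the U4 stem-loop with SNU13, rose from 27.6 ± 1.69 to 35.2 ± 1.06 FPKM (0.34 ± 0.05, adjusted p 0.00063). NHP2L1, the gene now named SNU13, binds the kink-turn of U4 RNA and also belongs to box C/D snoRNPs. It rose from 347 ± 16.3 to 405 ± 10.9 FPKM (0.22 ± 0.04, adjusted p 0.0016) and, per length, was the most abundant of the 5. The level of PPIH relative to PRPF4 went from 1.54 ± 0.0261 in the controls to 0.381 ± 0.0228 in the knockdown libraries.

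Among the proteins found only in the assembled tri-snRNP, USP39, a ubiquitin protease-like protein without enzyme activity, was at 45.5, 43.6 and 43.8 FPKM in controls 1 to 3 and 26.3, 23.9 and 27.3 FPKM in knockdown libraries 1 to 3. The groups were separate, a 1.72-fold fall (-0.76 ± 0.06, adjusted p 7.0e-06). SNRNP27, another protein of the tri-snRNP, fell from 36.4 ± 2.38 to 31.1 ± 1.34 FPKM (-0.22 ± 0.06, adjusted p 0.01). SART1, which recruits the tri-snRNP to the forming spliceosome, was at 44.3, 36.3 and 36.1 FPKM in controls 1 to 3 and 42.3, 40.6 and 46.1 FPKM in knockdown libraries 1 to 3, where control 1 lay above 2 of the knockdown libraries. It did not pass (0.15 ± 0.09, adjusted p 0.16), and was called higher without control 1 (0.24, adjusted p 0.01).

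**Figure D3:**
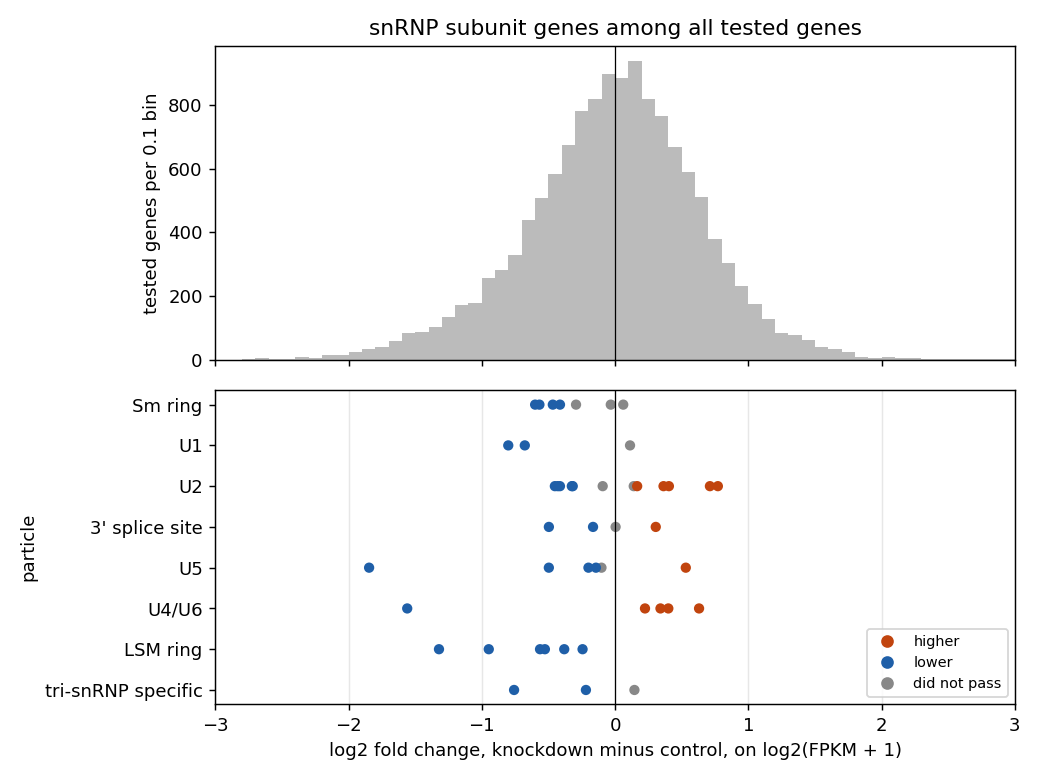
Upper panel, number of tested genes per 0.1 of log2 fold change (knockdown minus control), with the few genes beyond 3 in either direction not drawn. Lower panel, the 46 members at their own log2 fold change, 1 row per particle; TXNL4A at -1.85, PPIH at -1.56 and LSM4 at -1.32 lie in the lower tail, and no member lies above 0.77.

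The direction of change was also set beside coding length. Coding length, the longest in GENCODE v29 for each Ensembl identifier, ran from 240 bases for LSM6 to 7005 bases for PRPF8. Below 600 bases, 15 of 19 members fell (78.9%) and 1 rose, SF3B14, with a median log2 fold change of -0.47. At 600 bases or more, 11 of 27 fell (40.7%) and 10 rose, with a median of 0.00. A gene with several coding lengths was classed by the longest alone, which put NHP2L1, a rise, at 816 bases. Over all tested genes with a coding length, 40.3% of 1396 short and 37.6% of 9718 longer genes fell, and 33.6% and 38% rose. The limit was chosen with the fold changes known; SNRPC at 540 bases and SNRPB2 at 675 bases lay nearest to it. Across the 46 members, Spearman's rho between coding length and log2 fold change was 0.39, and across 11114 tested genes it was 0.09. The short class holds every LSM ring gene found by symbol and every Sm ring gene except SNRPB. Coding length and particle therefore overlap among these members. Lengths also varied within particles, as in U2 from 258 bases for SF3B5 to 3912 bases for SF3B1. The parts of length and particle in the direction of change were not tested. These values describe genes from the same 6 libraries, which are not independent replicates.

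**Figure D4:**
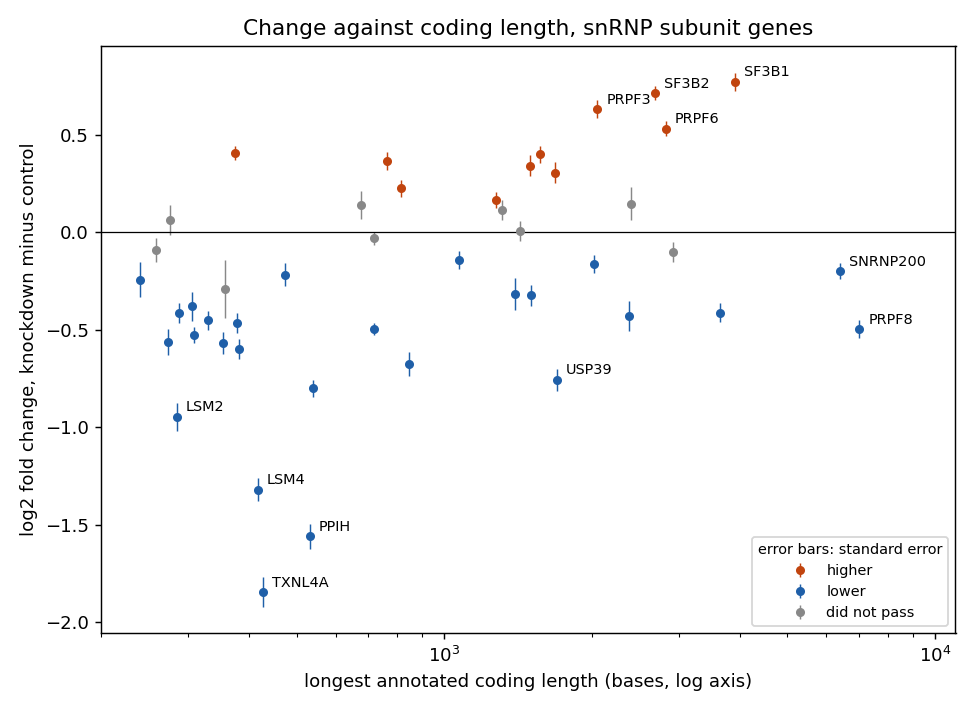
Log2 fold change (knockdown minus control, with standard error) of the 46 members against their longest coding length in bases (log axis), coloured by call. The 4 largest falls, TXNL4A, PPIH, LSM4 and LSM2, have coding lengths of 285 to 531 bases, while SF3B1, SF3B2, PRPF3 and PRPF6, the 4 largest rises, have 2049 to 3912 bases.

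The genes that make snRNPs rather than form part of them had shares of calls near those of all tested genes. Of 30 genes of snRNP assembly, 13 rose (43.3%, against 37% of tested genes) and 11 fell (36.7%, against 35.4%), 6 missed the threshold, and the median log2 fold change was 0.09. GEMIN2, the core partner of SMN that holds the Sm proteins before the ring closes, was at 8.21, 7.83 and 7.52 FPKM in controls 1 to 3 and 3.04, 2.33 and 2.59 FPKM in knockdown libraries 1 to 3. The groups were separate, a 2.96-fold fall (-1.28 ± 0.09, adjusted p 6.1e-06). GEMIN4, another subunit of the SMN complex, fell from 33.8 ± 1.54 to 19.7 ± 0.606 FPKM (-0.75 ± 0.05, adjusted p 4.6e-06). SMN2 went from 14.6 ± 1.81 to 9.13 ± 0.256 FPKM and its near-identical copy SMN1 from 19.1 ± 0.5303 to 12.4 ± 0.463 FPKM, and reads of these copies cannot be told apart with certainty. TSSC4, a chaperone of U5 assembly, rose from 25.2 ± 2.19 to 44.4 ± 0.685 FPKM (0.80 ± 0.06, adjusted p 9.8e-06). RIOK1, a kinase and partner of the methyltransferase PRMT5, rose from 26.1 ± 1.95 to 39.4 ± 0.6895 FPKM (0.58 ± 0.06, adjusted p 4.3e-05), and COIL (coilin), the scaffold of Cajal bodies, from 8.46 ± 0.105 to 12.5 ± 0.741 FPKM (0.51 ± 0.06, adjusted p 0.00012).

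Genes of the minor spliceosome, which removes the rare U12-type introns and shares the Sm ring, U5 and SF3b with the major one, were mostly higher. Of 13 genes, 8 rose (61.5%, against 37% of tested genes), 2 fell (15.4%, against 35.4%) and 3 missed the threshold. The list was chosen with earlier results of these data known, so these shares only describe the listed genes. The median log2 fold change was 0.43. RBM48, which with ARMC7 supports minor intron splicing, was at 8.23, 8.97 and 7.65 FPKM in controls 1 to 3 and 30.5, 31.8 and 29.3 FPKM in knockdown libraries 1 to 3. The knockdown libraries lay far above the controls, a 3.69-fold rise (1.77 ± 0.07, adjusted p 2.6e-07). RNPC3, the 65K protein that links U11 and U12, rose from 6.08 ± 0.3198 to 13.2 ± 0.936 FPKM (1.00 ± 0.07, adjusted p 5.9e-06) and ZCRB1, of the same particle, from 10.1 ± 1.11 to 19.7 ± 0.607 FPKM (0.91 ± 0.08, adjusted p 1.7e-05). The falls were SNRNP25, from 49.2 ± 1.79 to 30.8 ± 0.586 FPKM (-0.66 ± 0.04, adjusted p 4.1e-06), and PDCD7, from 32.4 ± 1.398 to 20.3 ± 0.59 FPKM (-0.65 ± 0.05, adjusted p 8.8e-06), both of the U11/U12 particle. TXNL4B, the paralogue of TXNL4A, was one of the rises, from 15.5 ± 0.428 to 25.1 ± 2.62 FPKM (0.66 ± 0.07, adjusted p 8.0e-05). The level of TXNL4A was 7.15 ± 0.882 times that of TXNL4B in the controls and 1.202 ± 0.129 times after knockdown. TXNL4B and the pairs used for ratios between levels were picked after their values were seen.

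Of 7 other proteins with the Sm fold, 2 rose and 2 fell (28.6% each, against 37% and 35.4% of tested genes), and 3 did not pass. LSM11 and LSM10, which replace SNRPD2 and SNRPD1 in the U7 particle that processes histone mRNA ends, went from 8.12 ± 0.472 to 5.46 ± 0.158 FPKM (-0.50 ± 0.07, adjusted p 0.00026) and from 36.03 ± 2.24 to 31.1 ± 1.53 FPKM (-0.20 ± 0.06, adjusted p 0.014). LSM14B and LSM14A, of cytoplasmic mRNA granules, rose from 27.4 ± 1.51 to 39.6 ± 0.9099 FPKM (0.52 ± 0.05, adjusted p 3.7e-05) and from 46.2 ± 3.28 to 57.8 ± 2.53 FPKM (0.32 ± 0.06, adjusted p 0.0015). The RNA parts of the particles are not polyadenylated, so mRNA libraries capture them poorly. Where listed they varied widely within groups, as for RNU4-2 at 322, 85.1 and 149.7 FPKM in controls 1 to 3 and 224, 134 and 108 FPKM in knockdown libraries 1 to 3, so no statement on them can be made from these values.

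**Figure D5:**
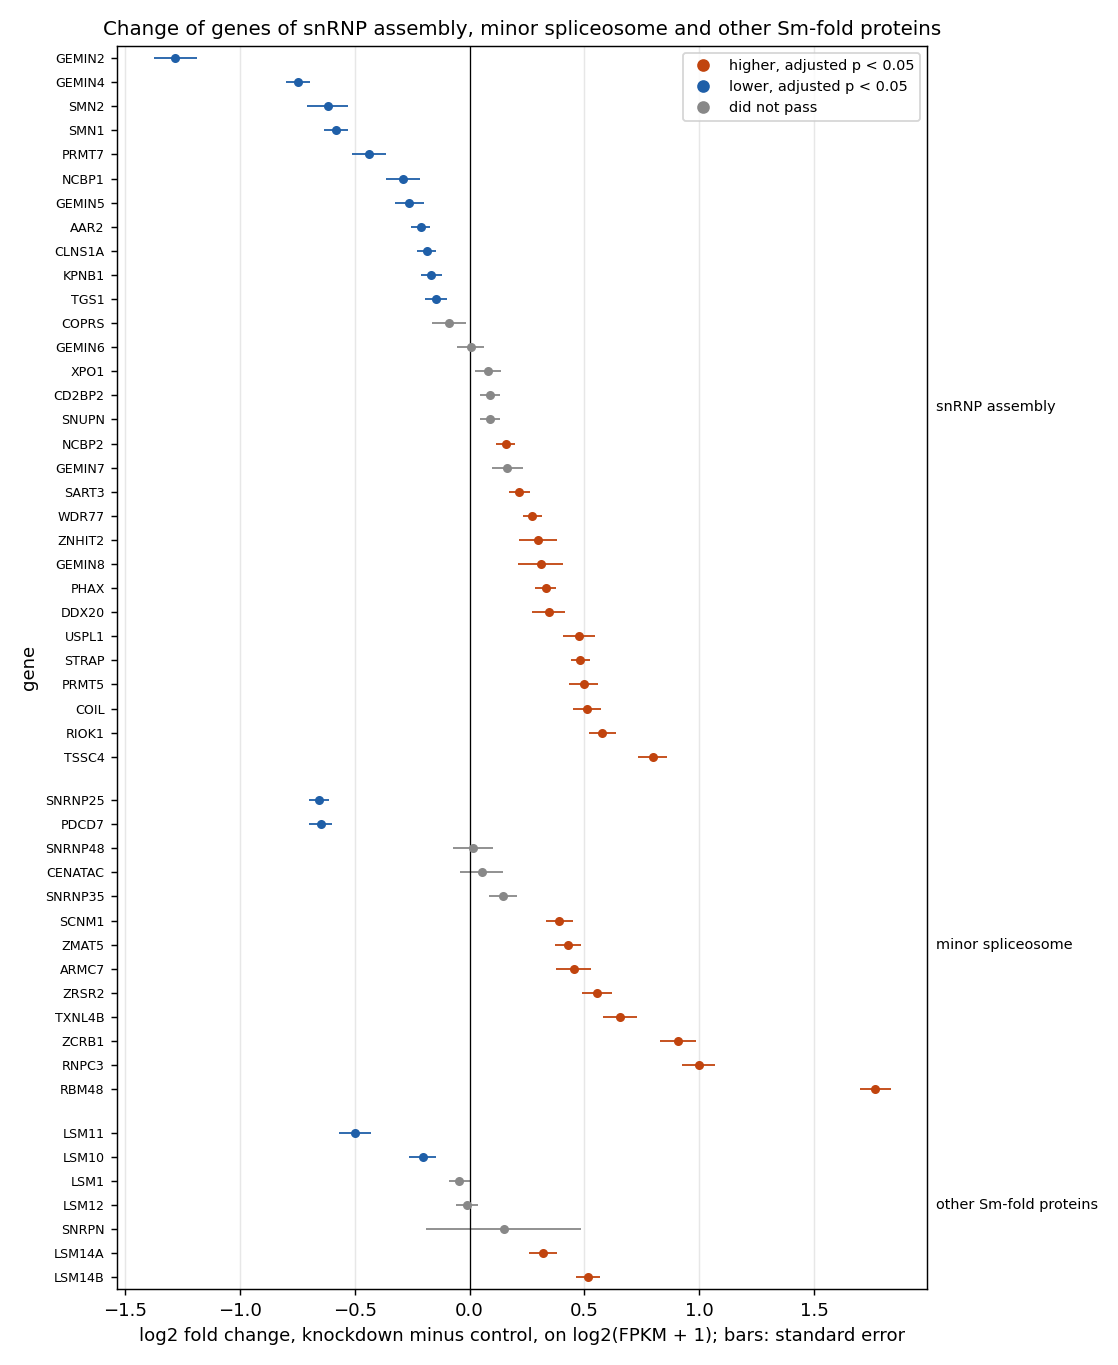
Log2 fold change (knockdown minus control, with standard error) of 30 snRNP assembly genes, 13 minor spliceosome genes and 7 other Sm-fold genes, coloured by the limma call. GEMIN2 at -1.28 and RBM48 at 1.77 are the extremes.

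For 15 of the 46 members (SNRPB, SNRPD1, SNRPD2, SNRPD3, SNRPA, SF3A1, SF3A2, EFTUD2, PRPF6, PRPF4, PRPF31, NHP2L1, LSM3, USP39 and SNRNP27) the listed locus was shared with at least one other gene at a mean of 1 FPKM or more, as for SNRNP27 with MXD1, which rose (log2 fold change 2.59 ± 0.07, limma adjusted p 9.8e-08), and PRPF4 with CDC26, which fell (-0.81 ± 0.08, limma adjusted p 4.5e-05). No source used here says whether counting used strand or how reads of such neighbours were divided. TXNL4A, PPIH, LSM4, LSM2, SF3B1 and SF3B2 had no such neighbour. Copies named after members, mostly pseudogenes, filled 39 rows, of which 3 reached a mean of 1 FPKM (SNRPEP4, SNRPGP10 and U2AF1L4). Judged from the steps between values below 0.2 FPKM, the value of 1 fragment varied by up to 1.26 times between libraries. Absolute depth is unknown. Over the tested genes, Pearson's r on log2(FPKM + 1) was 0.986 to 0.988 within groups and 0.927 to 0.932 between them.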

How the data were processed

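RNA-seq was analysed from 6 libraries of MDA-MB-435 cells, 3 control and 3 ZCCHC24 knockdown, with groups taken from the titles. Per the labels' protocols, 1 ug of total RNA entered a stranded mRNA kit, and reads were pairs of 100 bases. The authors deposited one FPKM value per gene and library, per the file headers. The submitters' processing notes list TopHat 1.4.1, Cuffdiff 2.2.0 and hg19 without their roles, and no source used here gives the annotation, filters or scaling. FPKM of short genes depend on the fragment length assumed, and loci may span neighbours.

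The 13343 of 57150 genes whose mean reached 1 FPKM were fitted as log2(FPKM + 1) with limma 3.58.1 in R 4.3.3, using a moderated two-sided test with a mean-variance trend and Benjamini-Hochberg adjustment over all of them, at a threshold of 0.05. This scale understates the change of weak genes; folds are ratios of mean FPKM, and levels are mean ± SD over n = 3. Because FPKM are not counts, no count model was fitted, and absolute depth and counting error are unknown. Fold changes carry the standard error of the fit, and every adjusted p in the text comes from limma.

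All members were named; values in every library were given for the largest called fall and rise of each particle, for the 6 largest called falls and rises overall and for others that did not pass or were singled out, and up to 3 called rises and falls were named from each related list. Members, particles, lists and this rule were chosen with earlier results of these data known. Other settings tried were leaving out each library, quality weights, a replicate block, median scaling, filters at 0 or 5 FPKM, a pseudocount of 0.1 and summed rows of repeated symbols. The fit was tested on simulated data. Coding lengths were taken by Ensembl ID from GENCODE v29 and promoters from RefSeq (GRCh38.p14) by symbol, using SNU13 and SF3B6 for NHP2L1 and SF3B14. Of 39 promoter entries, 38 ran into a GENCODE transcript of the same gene just after the start, which checks their strand.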

Additional observations from a re-analysis of the deposited data

How the results depend on the processing

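Under 13 other settings, 35 to 37 of the 37 member calls kept their sign and threshold and 0 were called with the opposite sign; the calls lost were LSM6 and SNRNP40, and those gained in some refits were SNRNP70, SF3B5, EFTUD2, SART1, SNRPB2 and SNRPD1. Leaving out 1 library gave 11 to 13 members higher and 24 to 26 lower, 4541 to 4821 genes higher and 4508 to 4588 lower, and ZCCHC24 between -2.39 and -2.32. Deviations from the group means correlated at -0.03, -0.07 and 0.02 between libraries with the same number, so the numbers are not shown to pair them; the replicate block gave 11 members higher and 26 lower, and 4971 genes higher and 4773 lower. After seeing the data, members were also counted without the 15 of 46 whose locus holds another gene at 1 FPKM or more. This left 7 higher and 18 lower among fewer genes, to be read against 37% and 35.4% of all tested genes. Counting LSM8 with the members, also after seeing the data, changed neither count (11 and 26). Uncalled genes near 0 turned sign. LSM8 was -0.0015 with quality weights, and with 1 library left out LSM8 ran from -0.024 to 0.038, SNRPE from -0.012 to 0.117 and U2AF2 from -0.025 to 0.049. Absolute depth is unknown, which limits small differences such as those of SNRNP40 and LSM6. DESeq2 and edgeR were not run, since the table holds no counts.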
